A study of Mus musculus with 20 samples.

Results

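The interferon regulatory factor (IRF) genes are a small family of transcription factor genes, and the 8 members Irf1, Irf2, Irf3, Irf4, Irf5, Irf7, Irf8 and Irf9 were taken by symbol from the 24421 genes counted in mouse dendritic cells grown from bone marrow (BMDCs). All 8 were among the 12465 genes kept by the filter on low counts and tested. BMDCs were grown from the marrow of 5 wild-type C57BL/6 mice (A to E) for 8 days in GM-CSF at 40 ng/mL. Cells of every mouse were split over 4 groups of 5 libraries each: DMSO with soluble ovalbumin (Ova), DMSO with IgG-opsonised Ova immune complexes (IC), I-BET151 (iBET) at 3.3 μM with Ova, and iBET at 3.3 μM with IC. Stimulation lasted 4 hours, so every group, controls included, had received ovalbumin in soluble or complexed form. The labels give iBET and stimulus as added together, whereas the methods place iBET before the stimulus, and the labels give 5% DMSO for the control arm without a solvent content for the iBET arm. Whether the solvent was matched cannot be told apart from the effect of iBET.

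IRFs share an N-terminal DNA-binding domain that recognises GAAA repeats in interferon-responsive promoters and enhancers. IRF3, IRF5 and IRF7 wait in the cytosol until kinases downstream of nucleic acid sensors and Toll-like receptors phosphorylate them, and they then switch on type I interferons and inflammatory cytokines; IRF9 is the DNA-binding part of the ISGF3 complex that answers interferon. IRF1 and IRF2 compete for the same sites, IRF1 mostly as an activator and IRF2 often as a repressor, and IRF4 and IRF8 pair with PU.1 or with BATF-family factors and set the fate of dendritic cell subsets. iBET displaces the BET bromodomain proteins from acetylated histones, and RNA levels do not report the phosphorylation on which several IRFs depend.

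Library totals ran from 16447491 to 29245150 counts, with a median of 21764663. Values are counts scaled to library size (CPM) after TMM normalization. Dendritic cell markers summed to between 4137 and 8377 CPM in a library, led by Cd74 and Itgax, whereas Flt3 reached at most 4.94 CPM and Cd209a at most 0.568 CPM. The 8 macrophage or monocyte markers were all counted and summed to between 935 and 2082 CPM, with group medians of 1579 CPM for DMSO and 1020.4 CPM for iBET under Ova, and of 1605 and 1175 CPM under IC. This sum was lower with iBET and was led by Csf1r. The means of Csf1r were 1032 CPM for DMSO and 582 CPM for iBET under Ova, and 1013 and 631 CPM under IC. Adgre1, Mertk, C1qa, C1qb, Fcgr1 and Cd68 also had lower means with iBET under both stimuli. Adgre1 under IC went only from 160.4 to 159.7 CPM. Ly6c2 went the other way, from 30.4 to 30.9 CPM under Ova and from 32.8 to 36.1 CPM under IC. The sum of dendritic cell markers had higher medians with iBET, at 5683 against 5163 CPM under Ova and 6452 against 5812 CPM under IC. Cd74 and Itgax, which lead that sum, had higher means with iBET under both stimuli. The means of Flt3, Zbtb46, H2-Ab1, Cd209a and Dcstamp were lower with iBET under both. Under Ova, Dcstamp went from 103 to 33.3 CPM, whereas H2-Ab1 went only from 289 to 287 CPM. The part of either sum in the change of the IRF genes was not tested. Markers of plasmacytoid dendritic cells summed to at most 72.2 CPM and Siglech, the defining one, had 0 counts in all 20 libraries, while B cell markers summed to at most 0.772 CPM and T or NK cell markers to at most 0.706 CPM. In these bulk libraries, fewer cells of a type and less RNA per cell cannot be told apart. On the principal component with 14.9% of the variance, mice A and B lay apart from mice C, D and E. The methods speak of removing batch effects with surrogate variables, but neither they nor the labels say which library belongs to which batch, so fits within these sets of mice are given beside the pooled ones.

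In GRCm38, as annotated by GENCODE M21, the members lie on 6 chromosomes and all are protein-coding. Irf1 is at chr11:53770014-53778374, Irf2 at chr8:46739732-46847458, Irf3 at chr7:44997648-45002848 and Irf4 at chr13:30749226-30766976. Irf5 is at chr6:29526625-29541871, Irf7 at chr7:141262706-141266481, Irf8 at chr8:120736358-120756694 and Irf9 at chr14:55603571-55610030. Irf7 is on the minus strand and the others are on the plus strand. Exons of some members overlap those of a neighbour: by 88 bases for Irf3 with Bcl2l12, 411 bases for Irf5 with Tnpo3 and 45 bases for Irf7 with Phrf1, each on the opposite strand, and by 123 bases for Irf9 with Rnf31 on the same strand. Irf1 shares 135 exon bases with Gm17334 on the opposite strand, a gene for which no counts were analysed here. The strand setting of the counting is not stated, so a small share of these counts may belong to the neighbour.

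Promoters of 3 members held letters that match the DNA elements through which interferon signalling is known to reach IRF genes. The 250 bases upstream of each RefSeq start site were searched on both strands for the gamma-activated site (GAS, TTCNNNGAA), the IRF core (AANNGAAA) and a tandem repeat (GAAANNGAA). The GAS letters occurred in 7.02% of all 32851 promoters, the IRF core in 21.3% and the tandem repeat in 7.13%. Irf1 held 1 GAS match, Irf8 held 2 and Irf2 held 1 together with 2 overlapping IRF core matches and 1 tandem match in the same stretch. No match was found in these windows of Irf3, Irf4, Irf5, Irf7 and Irf9. The stretches are shown because Irf1, Irf2 and Irf8 are 3 of the genes whose levels are followed below; capitals mark the matches, and all are on the plus strand of GRCm38.p6 with sequence from RefSeq. The Irf1 stretch is chr11:53769904-53769952, the Irf2 stretch chr8:46739495-46739549 and the Irf8 stretch chr8:120736167-120736233.
Irf1: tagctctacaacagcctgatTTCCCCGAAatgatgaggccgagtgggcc
Irf2: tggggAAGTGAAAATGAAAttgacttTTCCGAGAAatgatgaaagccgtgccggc
Irf8: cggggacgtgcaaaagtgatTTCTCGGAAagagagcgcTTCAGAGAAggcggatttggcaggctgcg
These are matches of letters; binding at them was not measured here.

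Per kilobase of exon, Irf5 was the most abundant member in 20 of 20 libraries. Exon length was the union over protein-coding transcripts of the basic annotation. Irf5 had 127 ± 22.4 CPM per kb (SD, n = 5 mice) with DMSO and Ova, followed by Irf8 with 79.1 ± 26.6 CPM per kb and Irf4 with 61.3 ± 15.5 CPM per kb. Irf8 lay above Irf4 in 19 of 20 libraries, but when the length was taken over all annotated transcripts, retained introns included, Irf4 lay above Irf8 in every library, so their order is not settled. Irf4, Irf5 and Irf8, the members most tied to myeloid and dendritic cells, together made up 79.1% of the family's CPM per kb with DMSO and Ova, 83.2% with DMSO and IC, 77.5% with iBET and Ova, and 83% with iBET and IC. Irf2 (22.7 ± 5.75), Irf9 (17.0 ± 2.32), Irf3 (15.6 ± 0.763) and Irf1 (14.5 ± 2.43 CPM per kb, SD, n = 5 each, DMSO with Ova) formed a middle set. Their order changed between libraries, as each of the 4 was the lowest of the set in at least 1 library, and Irf3 exceeded Irf1 in 12 of 20. It also depended on the length used: over all annotated transcripts the length of Irf2 went from 2497 to 7396 bases, which placed it below the other three in every library, so no order is given within this set. Irf7, whose product amplifies type I interferon in other settings, was last in 20 of 20 libraries, at 0.944 ± 0.404 CPM per kb and 22 to 84 counts.

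**Figure D1:**
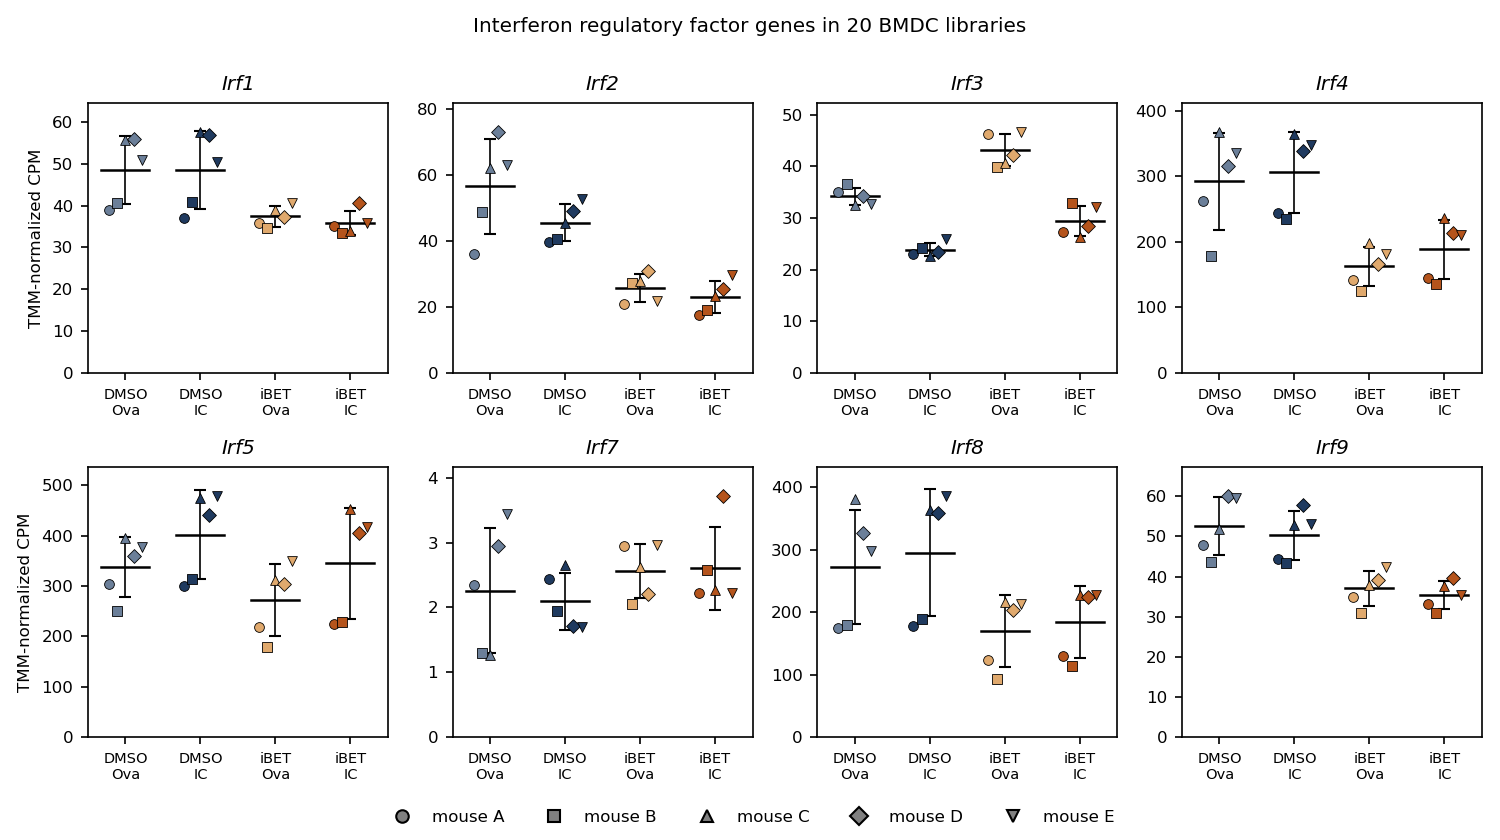
TMM-normalized CPM of each IRF gene (vertical axes, starting at 0, with a scale of their own per gene) in the 4 groups; each symbol is the library of 1 mouse, horizontal lines are group means and bars the SD of 5 mice. Irf3 is highest with iBET and Ova (39.9 to 46.7 CPM) and lowest with DMSO and IC (22.7 to 25.9 CPM), with the remaining groups between and overlapping each other, while Irf4, Irf5 and Irf8 are low in mice A and B in every group.

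The comparison of iBET with DMSO asks how BET inhibition alters the transcriptome of DCs under each stimulus. With Ova, 4 of 8 IRF genes fell (Irf1, Irf2, Irf4 and Irf9), 1 rose (Irf3) and 3 did not pass (Irf5, Irf7 and Irf8), at an edgeR adjusted p of 0.05 over all genes. Of all genes tested, 28.9% were lower and 27.7% higher in this comparison. With IC the same genes were called in the same directions: Irf1, Irf2, Irf4 and Irf9 lower and Irf3 higher, where 29% of all genes were lower and 27.1% higher. The median log2 fold change over the 8 members was -0.44 with Ova and -0.47 with IC, against -0.00287 and -0.00537 over all genes tested. The 2 comparisons share no library but come from the same 5 mice. CPM values of the iBET and DMSO groups did not overlap for 3 of 8 members under either stimulus (Irf2, Irf3 and Irf9), and for 38% of all genes with Ova and 42.8% with IC.

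Irf2, which often represses interferon-responsive promoters, had the largest fall of the family. With DMSO and Ova it measured 36.0, 48.8, 62.0, 73.1 and 63.0 CPM in mice A to E, and with iBET and Ova 20.9, 27.3, 27.9, 30.9 and 21.7 CPM. With DMSO and IC it measured 39.7, 40.7, 45.4, 49.2 and 52.8 CPM, and with iBET and IC 17.6, 19.2, 23.4, 25.3 and 29.7 CPM. Each iBET library lay below each DMSO library of the same stimulus. Under Ova its log2 fold change was -1.14 (standard error 0.171, edgeR adjusted p = 1.21e-05), and under IC it came to -0.99 (standard error 0.171, edgeR adjusted p = 6.21e-05), with the iBET library below in 5 of 5 mice both times. Intervals of 95% were -1.49 to -0.78 (Ova) and -1.34 to -0.63 (IC). The fall passed when mice A and B were fitted alone (-0.82 and -1.11) and when the other mice were (-1.25 and -0.88).

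Irf4, which directs the cDC2-type programme and pairs with PU.1 and BATF, fell by 0.84 on the log2 scale under Ova (standard error 0.195, edgeR adjusted p = 0.00108) and fell by 0.70 under IC (standard error 0.195, edgeR adjusted p = 0.00472). It measured 262, 179, 368, 316 and 335 CPM in mice A to E with DMSO and Ova, and 142, 125, 199, 166 and 182 CPM with iBET and Ova. With IC the values were 244, 235, 365, 338 and 347 CPM with DMSO and 145, 136, 237, 213 and 211 CPM with iBET. The groups overlapped across mice, yet within a mouse the iBET library was lower in 5 of 5 mice under each stimulus, by 0.51 to 0.93 with Ova and by 0.62 to 0.79 with IC on the log2 scale.

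Irf8, the companion factor that directs cDC1 and monocyte development, shifted by a similar amount but stood further apart between mice. It measured 175, 179, 380.3, 326 and 298 CPM in mice A to E with DMSO and Ova, against 123, 93.7, 216, 203 and 213 CPM with iBET and Ova. With IC it measured 179, 189.6, 363, 358 and 386 CPM with DMSO and 130.2, 114, 228, 225 and 228 CPM with iBET. Adding iBET gave a lower value in 5 of 5 mice for each stimulus, while mice C, D and E with iBET still lay above mice A and B with DMSO. Its log2 fold change of -0.68 under Ova (standard error 0.297, edgeR adjusted p = 0.0587) did not pass, nor did that of -0.68 under IC (standard error 0.297, edgeR adjusted p = 0.0601). With the mouse as a replicate block both passed (edgeR adjusted p = 3.22e-08 under Ova and 4.97e-08 under IC), and both also passed in either set of mice fitted alone.

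Irf5, the inflammatory member that acts downstream of Toll-like receptors, moved less. Under Ova its mean was 337 ± 59.4 CPM without iBET and 272 ± 70.8 CPM with it, and under IC 402 ± 87.8 and 345 ± 110.4 CPM (SD, n = 5 each). On the log2 scale these are -0.31 and -0.22 (edgeR adjusted p = 0.242 and 0.412), below 0 in 5 of 5 mice in both. With the replicate block it was lower with iBET under both stimuli (edgeR adjusted p = 0.000831 and 0.00751). Mice A and B alone gave -0.48 under Ova and -0.42 under IC; mice C, D and E alone gave -0.18 and -0.10, the last of which did not pass (edgeR adjusted p = 0.236). Irf5 and Irf8 brought the count of members lower with iBET to 6 of 8 with the block under each stimulus, where 35.2% of all genes were lower with Ova and 35.4% with IC.

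Irf9, the DNA-binding subunit of ISGF3, fell by nearly the same amount under both stimuli. It measured 47.9, 43.6, 52.0, 60.1 and 59.6 CPM in mice A to E with DMSO and Ova, and 34.9, 31.0, 37.9, 39.1 and 42.5 CPM with iBET and Ova. With IC the ranges were 43.4 to 57.7 CPM with DMSO and 30.8 to 39.8 CPM with iBET. No iBET value reached the lowest DMSO value. The fit gave -0.51 on the log2 scale under Ova (standard error 0.106, edgeR adjusted p = 0.000447) and -0.51 under IC (standard error 0.106, edgeR adjusted p = 0.000435), and single mice ran from -0.62 to -0.45 and from -0.58 to -0.41.

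Irf1, the interferon-gamma-inducible activator, also fell, though unevenly between mice. With DMSO and Ova it measured 39.0, 40.7, 55.6, 56.0 and 50.8 CPM in mice A to E, and with iBET and Ova 35.7, 34.5, 38.9, 37.2 and 40.7 CPM. With IC it measured 37.1, 40.8, 57.6, 56.8 and 50.3 CPM with DMSO, and from 33.5 (mouse B) to 40.6 CPM (mouse D) with iBET. The spread between mice under Ova was narrower with iBET, with an SD of 2.45 CPM against 8.10 CPM. Lower in 5 of 5 mice under each stimulus, it had log2 fold changes of -0.37 under Ova (standard error 0.121, edgeR adjusted p = 0.0128) and -0.44 under IC (standard error 0.121, edgeR adjusted p = 0.00425). For mice C, D and E alone these were -0.43 and -0.55 and passed, whereas neither the -0.18 nor the -0.17 of mice A and B did (edgeR adjusted p = 0.141 and 0.184). Without mouse C or without mouse D the fall with Ova no longer passed (edgeR adjusted p = 0.0629 and 0.061, log2 fold changes -0.32 and -0.31).

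Irf3 was the single member that rose with iBET. IRF3 is the constitutively made factor through which TBK1 starts the interferon beta response. It measured 35.0, 36.5, 32.5, 34.2 and 32.7 CPM in mice A to E with DMSO and Ova, and 46.3, 39.9, 40.7, 42.2 and 46.7 CPM with iBET and Ova. With IC it measured 23.1, 24.2, 22.7, 23.4 and 25.9 CPM with DMSO, and 27.3, 32.9, 26.3, 28.4 and 32.1 CPM with iBET. Each iBET library lay above each DMSO library of the same stimulus. The rise was 0.34 on the log2 scale under Ova (standard error 0.0689, edgeR adjusted p = 0.000337) and 0.30 under IC (standard error 0.0697, edgeR adjusted p = 0.0011), higher in 5 of 5 mice in both. Within mice A and B alone the value with Ova was 0.27 and did not pass (edgeR adjusted p = 0.102). Bcl2l12, the gene that overlaps Irf3, had 52 to 150 counts in a library against 436 to 1147 for Irf3, and fell with iBET by 0.51 on the log2 scale under Ova (edgeR adjusted p = 0.00036) and fell by 0.67 under IC (edgeR adjusted p = 2.3e-05).

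Irf7 stayed low in all groups, at 1.27 to 3.72 CPM. In the iBET comparison it had a log2 fold change of 0.18 under Ova (interval of 95% from -0.34 to 0.69, edgeR adjusted p = 0.564) and of 0.32 under IC (interval from -0.20 to 0.83, edgeR adjusted p = 0.283), higher in 3 of 5 mice in each. At 22 to 84 counts in a library, a change smaller than these intervals was not detectable.

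**Figure D2:**
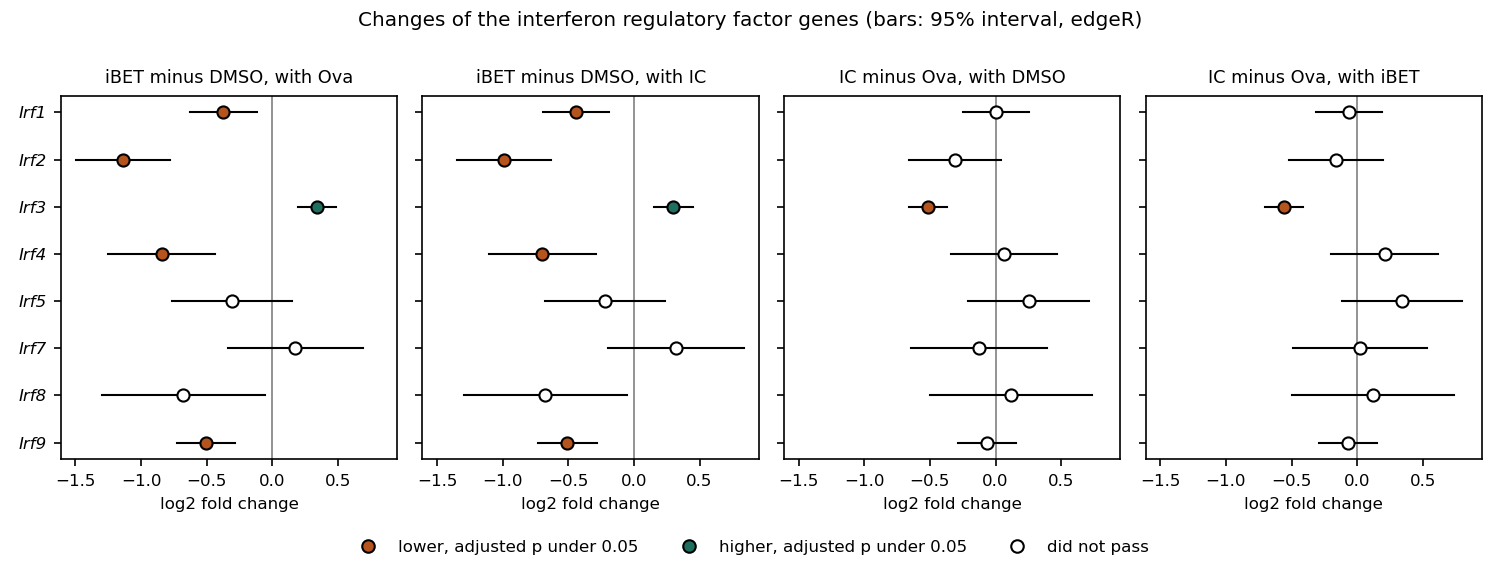
Log2 fold changes (horizontal axes) of the 8 IRF genes in the 4 pairwise comparisons, with points at the estimate and bars at the interval of 95% from edgeR; filled points passed an adjusted p of 0.05. In both iBET panels Irf2 lies farthest left, at -1.14 and -0.99, and Irf3 is the filled point to the right of 0; in both IC panels Irf3 is the sole filled point, at -0.52 and -0.55.

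The comparison of IC with Ova asks what Fcγ receptor cross-linking changes in these cells. Without iBET, 1 of 8 IRF genes was lower (Irf3), 0 were higher and 7 did not pass, where 10.7% of all genes were lower and 9.59% higher. With iBET, again 1 of 8 was lower (Irf3) and 0 were higher, where 6.63% of all genes were lower and 5.19% higher. At an unadjusted p under 0.05 the counts from edgeR were also 1 in each arm, and the Wald test of DESeq2 called 1 in each arm. Groups did not overlap for 1 of 8 members in either arm (Irf3), and for 12.4% of all genes with DMSO and 10% with iBET. The IC comparisons share libraries with the iBET comparisons, so they are not independent of them.

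For Irf3 the values given above show each IC library below each Ova library of the same arm. Under DMSO the log2 fold change was -0.52 (standard error 0.0696, edgeR adjusted p = 4.37e-05), and under iBET it was -0.55 (standard error 0.0692, edgeR adjusted p = 2.84e-05), and 5 of 5 mice were lower in both arms; these are changes of -30.1% and -31.9%. Bcl2l12 also lay lower with IC, by -0.26 with DMSO, which did not pass, and by -0.42 with iBET, which did (edgeR adjusted p = 0.0858 and 0.0152). Within mice A and B the fall with iBET was -0.51 and did not pass (edgeR adjusted p = 0.066); the other within-set values passed. From high to low, the groups averaged 43.2 ± 3.17 CPM (iBET, Ova), 34.2 ± 1.67 CPM (DMSO, Ova), 29.4 ± 2.94 CPM (iBET, IC) and 23.9 ± 1.27 CPM (DMSO, IC; SD, n = 5 each). Each step in that order passed, including iBET with IC against DMSO with Ova, where the log2 fold change was -0.22 (standard error 0.0693, edgeR adjusted p = 0.0107) although the values of those groups overlapped. For Irf3 the interaction, the iBET effect under IC less that under Ova, was -0.04 (interval of 95% from -0.24 to 0.17).

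The other members changed little with IC in the fit without mice. Irf5 had log2 fold changes of 0.25 with DMSO and 0.34 with iBET, above 0 in 4 of 5 and 5 of 5 mice (edgeR adjusted p = 0.468 and 0.356). Irf2 had -0.31 and -0.16, below 0 in 4 of 5 mice in each (edgeR adjusted p = 0.204 and 0.615), and Irf4 had 0.07 and 0.21 (edgeR adjusted p = 0.861 and 0.559). With the replicate block, Irf5 was higher with IC in both arms (edgeR adjusted p = 0.0201 with DMSO and 0.00439 with iBET), Irf2 was lower with DMSO (edgeR adjusted p = 0.0325) and Irf4 was higher with iBET (edgeR adjusted p = 0.0239). That makes 2 lower and 1 higher of 8 with DMSO, where the blocked fit called 19.8% of all genes lower and 18.3% higher. With iBET it makes 1 lower and 2 higher, where 14.7% of all genes were lower and 14.2% higher. Within mice C, D and E Irf5 rose by 0.32 with DMSO and 0.40 with iBET (edgeR adjusted p = 0.00644 and 0.00378), and within mice A and B it had 0.13 and 0.19 and did not pass.
Irf1, Irf7, Irf8 and Irf9 did not pass with IC in either arm or with the block, and their log2 fold changes lay between -0.12 and 0.12. The widest interval of 95% among them was that of Irf8, from -0.50 to 0.74 in both arms. In the fit without mice, shifts inside that range cannot be told from the spread between mice. With the replicate block Irf8 had 0.11 with DMSO and 0.13 with iBET (standard errors 0.0650 and 0.0654, edgeR adjusted p = 0.195 and 0.137).

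For none of the 8 members did the effect of iBET depend on the stimulus beyond the spread. In edgeR 0 of 8 passed for the interaction, where 0.0401% of all genes did, and 0 of 8 had an unadjusted p under 0.05, the lowest being 0.538 for Irf2. DESeq2 called 0 of 8 and the fit with the replicate block 0 of 8. In the fit without mice, Irf8 had the widest interval, from -0.87 to 0.88 on the log2 scale, and Irf3 the narrowest. A dependence of Irf8 within that range was not detectable in that fit. With the replicate block the interaction of Irf8 was 0.02 (standard error 0.0922, edgeR adjusted p = 0.967).

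Differences between mice were large for part of the family. Irf4, Irf5, Irf8 and Irf9 were lower in mice A and B than in mice C, D and E in 4 of 4 groups. Irf1 and Irf2 were so in 3 of 4, and Irf3 and Irf7 in 0 of 4. The principal component with 14.9% of the variance over all tested genes split the mice the same way. Neither these counts nor the shares of variance that follow are given for all genes, so they do not single out the family. The share of within-group variance that lay between mice was 96.8% for Irf8, 93.5% for Irf4, 91.1% for Irf5 and 89.7% for Irf9, against 41.1% for Irf3 and 18.5% for Irf7. The means of the mice spanned 1.05 log2 units for Irf8, 0.78 for Irf4 and 0.76 for Irf5, beside iBET effects under Ova of -0.68, -0.84 and -0.31 on the same scale. Deviations of Irf5 from its group means followed those of Irf8 (r = 0.942) and Irf4 (r = 0.931) over the 20 libraries, which come from 5 mice and are not independent, so no p is given. The same split of mice was seen in some marker sums. Eosinophil markers summed to 38.9 to 57.6 CPM in mice A and B and to 85.9 to 136 CPM in the others. Mast cell or basophil markers summed to 7.84 to 16.5 and 25.0 to 34.6 CPM. Neutrophil markers had medians of 14.7 CPM in mice A and B and 24.1 CPM in the others. Dendritic cell markers had medians of 5016 and 6229 CPM, with overlapping ranges of 4137 to 5787 and 5163 to 8377 CPM. Macrophage or monocyte markers had medians of 1734 and 1277 CPM, and their ranges of 1142 to 2082 and 935 to 1605 CPM overlapped. Plasmacytoid dendritic cell markers also overlapped, at 41.2 to 65.1 and 43.7 to 72.2 CPM. The part of these cells in the levels of the IRF genes was not tested.

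**Figure D3:**
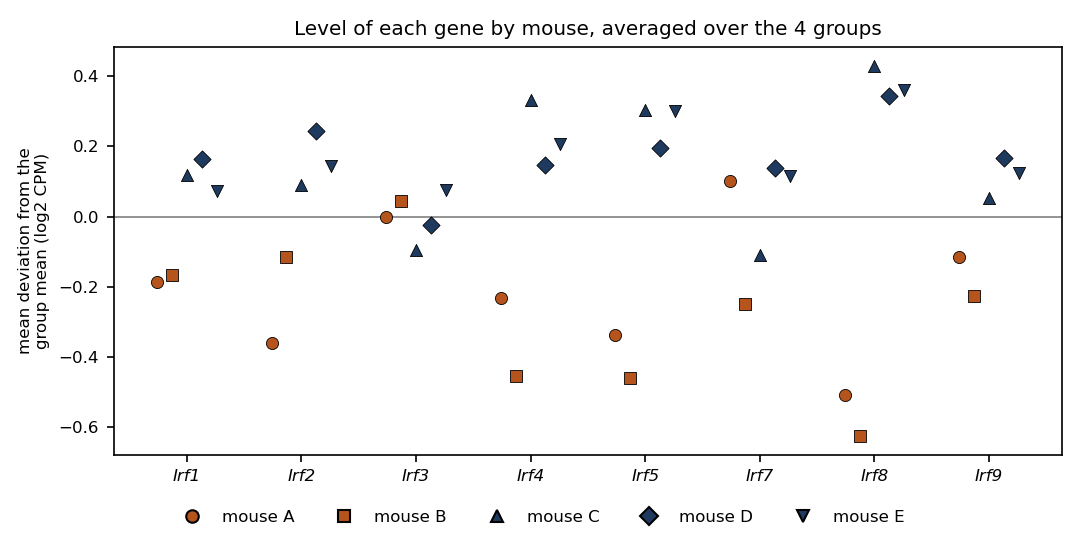
Mean deviation of each mouse from the group mean, in log2 CPM averaged over the 4 groups (vertical axis), for the 8 IRF genes (horizontal axis); orange symbols are mice A and B and dark blue symbols mice C, D and E. Irf8 spans 1.05 log2 units between mice with A and B at the bottom, and Irf3 spans 0.17 with no such split.

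The genes whose levels ran most like each member over the 20 libraries were found by Pearson's r of log2 CPM. Irf3 ran with Txnip (r = 0.96), the arrestin-fold inhibitor of thioredoxin and glucose uptake, with Sike1 (r = 0.94), a suppressor of the kinases that activate IRF3, and with Pck2 (r = 0.932). Txnip rose by 1.37 with iBET and Ova and fell by 1.53 with IC and DMSO on the log2 scale (edgeR adjusted p = 3.14e-09 and 2.02e-08), a wider swing than that of Irf3 in the same directions. Irf2 ran with Wipf1 (r = 0.991), an actin regulator, Gltscr1l and Zfp467, and Irf9 with Mdp1 (r = 0.978), which lies 47.8 kb from it on chromosome 14, Vasp and Zfp524. Irf1 ran with Kdm4a (r = 0.97), Enox2 and Mtmr1, and Irf4 with Tnfrsf9 (r = 0.979), Mllt6 and Gm13546.
Irf5 ran with Cldn1 (r = 0.96), Grasp and the chemokine receptor gene Ccr7 (r = 0.954), and Irf8 with Wnt11 (r = 0.985), Sh3bp4 and Sema7a. For Irf7 the closest gene, Mrps23, reached r = 0.694. The points share group, mouse and library, and the values are descriptions.

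Upstream of the IRFs, genes for sensors, adaptors and kinases were mostly lower with iBET. Of 19 tested, 12 fell and 2 rose with Ova, and 12 fell and 1 rose with IC, with median log2 fold changes of -0.52 and -0.31. Of all genes, 28.9% fell and 27.7% rose with Ova, and 29% and 27.1% with IC. These shares hold beside each list that follows. All the lists were chosen with earlier results of these data known, so their counts are descriptions. The largest falls with Ova were those of Tlr7 (-3.11, edgeR adjusted p = 2.15e-07) and Tlr9 (-2.34, edgeR adjusted p = 7.32e-05), the endosomal nucleic acid receptors, and with IC those of Tlr7 (-2.99) and Tlr4 (-2.25, edgeR adjusted p = 3.99e-09). Tlr7 went from 70.9 ± 30.3 CPM with DMSO and Ova to 8.21 ± 4.28 CPM with iBET and Ova (SD, n = 5 each). Mavs, the mitochondrial adaptor, rose by 0.21 and 0.19 on the log2 scale (edgeR adjusted p = 0.0274 and 0.0391), and Mb21d1, which encodes cGAS, rose by 0.31 with Ova (edgeR adjusted p = 0.0218). With IC in DMSO 3 rose and 4 fell, where 9.59% of all genes rose and 10.7% fell, led by a rise of 0.47 in Tbk1 (edgeR adjusted p = 0.000225), which encodes the kinase of IRF3, and of 0.42 in Traf3 (edgeR adjusted p = 0.000273), and by falls of 0.48 in Ddx58 and 0.33 in Myd88. With IC and iBET 2 rose and 2 fell, where 5.19% of all genes rose and 6.63% fell: Traf3 (0.38) and Tank (0.31) were higher, and Ddx58 (-0.47) and Tbkbp1 (-0.26) lower. Under the replicate block the IC counts were 6 higher and 8 lower with DMSO, and 6 higher and 9 lower with iBET. That fit called 18.3% of all genes higher and 19.8% lower in the DMSO arm, and 14.2% and 14.7% in the iBET arm.

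Interferon beta RNA was all but absent at this time point, with 0 or 1 count of Ifnb1 in a library. Of the 9 tested genes for interferon receptor chains and JAK-STAT proteins, 4 fell and 2 rose with iBET under each stimulus; 2 of 9 is a smaller share than the 27.7% and 27.1% of all genes that rose. Jak2 fell by 1.02 with Ova and by 0.997 with IC (edgeR adjusted p = 0.0127 and 0.0145), and Tyk2 fell by 0.58 with Ova (edgeR adjusted p = 0.00159). Ifnar1 and Jak1 rose slightly, by 0.14 to 0.19. Stat2, which encodes a partner of IRF9, had log2 fold changes of 0.39 and 0.51 and did not pass (edgeR adjusted p = 0.205 and 0.0977), but it was higher in both with the replicate block, at 0.43 and 0.52 (edgeR adjusted p = 1.27e-05 and 1.18e-06). With IC and DMSO, Ifnar1 (0.37) and Ifngr2 (0.19) were higher and Tyk2 (-0.52) and Ifngr1 (-0.33) lower, and with IC and iBET Ifngr2 (0.35) and Ifnar1 (0.32) were higher, with edgeR adjusted p of at most 0.0129. Under iBET all 9 passed with the replicate block, 3 higher and 6 lower under Ova and 4 higher and 5 lower under IC, where that fit called 33.5% of all genes higher and 35.2% lower under Ova, and 32.6% and 35.4% under IC. The block gave 3 higher and 1 lower with IC in the iBET arm, where it called 14.2% of all genes higher and 14.7% lower.

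Among 12 partner factors and IRF2-binding proteins, 7 fell with iBET under each stimulus, and 3 rose with Ova and 2 with IC. Spi1 encodes PU.1, a partner of IRF4 and IRF8 on composite sites. Spi1 fell by 2.57 with Ova and fell by 2.77 with IC on the log2 scale (edgeR adjusted p = 2.66e-14 and 1.1e-14). It went from 193 ± 11.1 CPM with DMSO and Ova to 32.3 ± 4.10 CPM with iBET and Ova (SD, n = 5 each), a wider step than that of Irf4 or Irf8. Spib fell by 1.79 with Ova (edgeR adjusted p = 0.0116) and Batf3 fell by 2.08 with IC (edgeR adjusted p = 0.000281). Ets1 rose by 2.30 and 2.24 (edgeR adjusted p = 3.54e-08 and 4.7e-08), Jun rose by 0.56 with Ova, and Irf2bp1 by 0.24 with IC. With IC and DMSO, Jun was the single gene of this list that passed (0.52, edgeR adjusted p = 0.0124), and with IC and iBET 0 of 12 passed in edgeR, at an unadjusted p under 0.05 or in DESeq2. With the replicate block 3 were higher and 1 lower with IC and DMSO, and 1 higher and 1 lower with IC and iBET. That fit called 18.3% of all genes higher and 19.8% lower in the DMSO arm, and 14.2% and 14.7% in the iBET arm.

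The antiviral targets of ISGF3 were mostly lower with iBET. Of 18 tested ISGF3 targets, 13 fell with Ova and 14 with IC, and 0 rose in either comparison in edgeR, at an unadjusted p under 0.05 or in DESeq2; the median log2 fold changes were -1.85 and -1.93. Ifit3 and Rtp4, the genes of this list with the largest falls, stood at low levels, with 0.809 ± 0.313 and 1.24 ± 0.841 CPM with DMSO and Ova. Ifit3 had 0.0941 ± 0.0319 CPM with iBET and Ova, a difference of -3.05 on the log2 scale (edgeR adjusted p = 1.08e-06). Under IC its difference was -4.26. Rtp4 was lower by -3.11 and -3.54. With IC and DMSO 5 of the 18 rose, where 9.59% of all genes did. They were led by Rsad2 (1.82, edgeR adjusted p = 0.00039) and Cxcl10 (1.70, edgeR adjusted p = 0.00518). Both stood at low levels. With DMSO, Rsad2 went from 3.15 ± 1.27 to 11.3 ± 4.48 CPM and Cxcl10 from 0.752 ± 0.300 to 2.52 ± 0.886 CPM (SD, n = 5 each). With iBET, Rsad2 went from 0.870 ± 0.271 to 2.85 ± 1.19 CPM. With IC and iBET 1 rose, Rsad2 (1.70, edgeR adjusted p = 0.00447), where 5.19% of all genes did. No ISGF3 target fell with IC in edgeR or DESeq2, and 1 did in each arm at an unadjusted p under 0.05. With the replicate block 6 rose and 2 fell with IC and DMSO, where it called 18.3% of all genes higher and 19.8% lower. With IC and iBET 3 rose and 1 fell under the block, where it called 14.2% of all genes higher and 14.7% lower.

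Of 14 tested IRF1 and interferon-gamma targets, 10 fell with iBET under each stimulus, and 0 rose in edgeR, at an unadjusted p under 0.05 or in DESeq2. Ciita, the master activator of MHC class II genes, fell by 4.99 with Ova and fell by 5.51 with IC, Gbp3 fell by 2.75 with Ova and Gbp5 fell by 2.45 with IC (edgeR adjusted p = 1.57e-07, 6.68e-08, 4.17e-09 and 0.000454). With IC, Nos2 rose by 1.78 with DMSO and 2.86 with iBET, and Cd274, which encodes PD-L1, by 0.63 and 0.95. Nos2 stood at low levels, going from 0.739 ± 0.335 to 2.51 ± 0.516 CPM with DMSO. With iBET it went from 0.173 ± 0.138 to 1.27 ± 0.329 CPM (SD, n = 5 each). Its interaction did not pass in edgeR, so the larger value with iBET is not a stronger response. Gbp7 fell by 0.76 with DMSO and fell by 0.44 with iBET, and Gbp3 fell by 0.70 with DMSO. The replicate block gave 1 gene higher and 12 lower with iBET under Ova, where it called 33.5% of all genes higher and 35.2% lower. With IC in the iBET arm it gave 4 higher and 2 lower, where it called 14.2% of all genes higher and 14.7% lower.

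Genes tied to the IRF8 and IRF4 branches of dendritic cells moved as follows. Of 10 tested IRF8-dependent genes, Irf8 itself included, 4 fell and 1 rose with iBET and Ova, and 2 fell and 2 rose with IC, where 29% of all genes fell and 27.1% rose, so the counts with IC are not above those shares. Batf3 (-1.75 and -2.08) and Tlr3 (-1.68 and -1.98) were lower. Batf3 was also counted among the partner factors and Tlr3 among the sensors, so these lists overlap. Cadm1 rose by 2.16 and 2.99 from a level near 0 (0.125 ± 0.125 CPM with DMSO and Ova, SD, n = 5), and Ppt1 by 0.30 with IC. Xcr1, which defines cDC1 together with Clec9a, had 0 to 2 counts in a library and was not tested. Of 9 tested IRF4-dependent genes, Irf4 itself included, 6 fell with Ova and 5 with IC, and 0 rose in edgeR, at an unadjusted p under 0.05 or in DESeq2. Pdcd1lg2, which encodes PD-L2, fell by 3.93 with Ova and 3.85 with IC, next to Ciita, which this list shares with that of IRF1. With IC, Wdfy4 of the IRF8 list was lower with DMSO (-0.46, edgeR adjusted p = 0.00203); of the IRF4 list Klf4 was lower in both arms (-0.58 and -0.43), Ccl17 was higher with DMSO (0.73) and Mgl2 with iBET (0.35), with edgeR adjusted p of at most 0.0297. With IC and iBET 0 of 10 genes of the IRF8 list passed in edgeR or DESeq2, and 1 was lower at an unadjusted p under 0.05. With the replicate block the IRF8 list had 3 genes higher and 5 lower with iBET under Ova, and 3 higher and 4 lower under IC. With IC it had 2 higher and 2 lower in each arm. The IRF4 list had 8 lower with iBET under each stimulus. With IC it had 4 higher and 1 lower with DMSO, and 6 higher and 1 lower with iBET. For iBET that fit called 33.5% of all genes higher and 35.2% lower under Ova, and 32.6% and 35.4% under IC. For IC it called 18.3% higher and 19.8% lower with DMSO, and 14.2% and 14.7% with iBET.

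**Figure D4:**
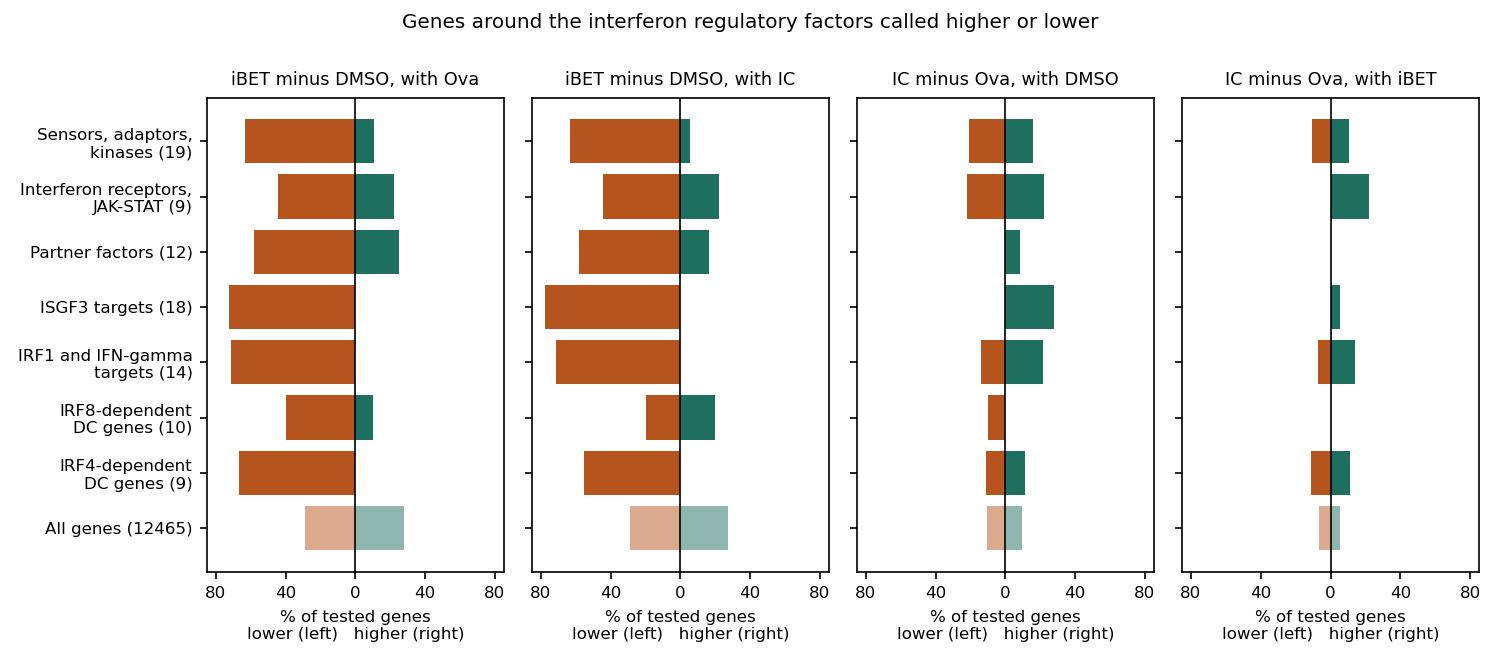
Share of the tested genes of each list (number in brackets) called lower, to the left, or higher, to the right, in the 4 pairwise comparisons, as a percentage on the horizontal axis; the pale bars are all 12465 genes tested. In the iBET panels the ISGF3 targets have 13 and 14 of 18 genes to the left and 0 to the right. The pale bars with Ova are near 28.9% to the left and 27.7% to the right. The lists were chosen with earlier results of these data known.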

How the data were processed

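RNA-seq of murine BMDCs was read from 20 libraries, with 5 mice in each of 4 groups. The authors trimmed the reads, aligned them to mm10 with HISAT2, counted them on genes with featureCounts and deposited the raw counts; strand setting and annotation are not given in the sources used here. They also deposited a signal table, which was checked to be the counts divided by a size factor per library.

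In edgeR 4.0.16 under R 4.3.3, filterByExpr removed genes with low counts, TMM set the scaling, and quasi-likelihood tests were run on 1 fit of all 20 libraries whose design held the 4 groups and no covariate. Benjamini-Hochberg adjustment covered the 12465 genes tested, and 0.05 was the threshold. Log2 CPM used a prior count of 2. The members and gene lists were chosen with earlier results of these data known, and so were the sets of mice A and B and of mice C, D and E. Named genes are the 8 members, the 3 genes most like each, and for each list and comparison the 2 largest rises and falls that passed; Stat2, Ifnb1, Bcl2l12 and Xcr1 were added after their values were seen, and some genes that the rule names are not reported here.

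The letters pair the samples, since the labels name the mouse; deviations from the group means correlated across genes in all 30 pairs of libraries from 1 mouse (mean r 0.524, lowest 0.307). Genes are not independent replicates. Alternatives were the mouse as replicate block, DESeq2 1.42.0, other size factors, surrogate variables (sva 3.50.0), no filter, fewer libraries, limma 3.58.1 on the log2 of the deposited signal plus a pseudocount of 1, and mice left out. The edgeR test was also run on simulated counts. These held no differences between mice, so that run does not bear on the pairing of the samples. The lowest library total of 16447491 counts limits precision, and errors are the SD between mice.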

Additional observations from a re-analysis of the deposited data

Results flagged for a closer look

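The value of Irf7 in the iBET IC library of mouse D was 3.72 CPM, while the other mice of that group had 2.22 to 2.58 CPM, a gap that is large for a group of 5. It was the only such library among the 32 sets of 5 values examined, of which chance gives about 1 in 20. Without mouse D the log2 fold change of Irf7 with iBET and IC was 0.09, against 0.32 with all mice, and neither passed (edgeR adjusted p = 0.803 and 0.283).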

How the results depend on the processing

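Counts of members called with IC moved beyond 1.5 times under some alternatives. With DMSO the count of 1 became 3 with the replicate block (1 higher, 2 lower), 2 with surrogate variables and 3 in mice C, D and E only; with iBET it became 3 with the replicate block (2 higher, 1 lower), 3 with surrogate variables, 2 in mice C, D and E only and 0 in mice A and B only. The surrogate variables added Irf9, lower with IC in both arms (adjusted p = 0.0344 and 0.0467 in edgeR). Counts with iBET ran from 4 to 7 under Ova and from 5 to 7 under IC over 15 alternatives. Leaving out 1 mouse gave 4 to 5 members under Ova, 5 to 5 under IC, 1 to 1 with IC in either arm and 0 to 0 for the interaction. Beside the calls given for Irf2, Irf4, Irf5 and Irf8, the block changed no other call among the members. No alternative reversed a called value. Irf8 passed in 6 of 15 alternatives under Ova and in 5 of 15 under IC, and Irf5 in 4 and 3; the cause was not tested. The interaction was called for 5 of all genes by edgeR, 24 by DESeq2 and 102 with the block. Irf7 rests on 22 to 84 counts in a library, and what sets its spread was not tested. Replicates are cultures of separate mice, and all 4 groups come from the same 5.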
